A study of Mus musculus with 8 samples.

Results

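Genes that moved the same way in mouse skin tumour cells after deletion of Twist1 and after deletion of Twist1 together with p53 are described here. A gene was taken when it lay on an autosome, changed in the same direction in both deletions, and had no overlap between its deletion arrays and its control arrays in either experiment. This held for 2143 of 12849 autosomal genes tested, of which 776 were higher (6.04% of those tested) and 1367 lower (10.6%) after deletion. Another 836 genes (6.51%) were separated just as cleanly in both experiments but in opposite directions. For the genes taken, separation of the arrays is the rule of selection and adds no evidence where it is repeated below.

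Skin tumours had been raised in mice by the carcinogen DMBA followed by TPA, a tumour promoter, and all mice had received 5 doses of 2 mg tamoxifen. Live tumour epithelial cells were sorted as positive for the epithelial surface protein Epcam and negative for lineage markers and for the dead-cell dye DAPI (Epcam+/Lin-/DAPI-). The Twist1 deletion (K14CreER:Twist1fl/fl) was set against Twist1fl/fl controls, and the Twist1/p53 deletion (K14CreER:Twist1fl/fl:p53fl/fl), which the sample titles call Rescue, against Twist1fl/fl:p53fl/fl controls. Each of the 4 groups had 2 arrays. Controls carried the floxed alleles and received tamoxifen but lacked CreER, a Cre recombinase fused to part of an estrogen receptor, which here was driven by the keratin 14 promoter. Since keratin 14 marks the basal layer, Twist1 can persist in tumour cells that never used that promoter. The 8 array descriptions carry different numbers, but no label states which arrays came from separate mice, so p-values measure the spread between these samples, part of which may be technical. No array served in both experiments.

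Twist1 is a basic helix-loop-helix transcription factor that binds E-boxes in DNA as a dimer with an E protein. Id proteins bind E proteins without contacting DNA and so compete with such factors. Twist1 is best known for driving epithelial cells towards a mesenchymal state and for restraining p53 in tumours. These comparisons ask which genes change the same way after deletion of Twist1 and after deletion of Twist1 together with p53. Controls of the Twist1/p53 deletion lacked CreER and so kept p53 as well as Twist1, and no group had p53 deleted alone. The effect of losing Twist1 in cells already without p53 was therefore not tested, nor was the part of p53 loss in the Twist1/p53 changes.

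Values are log2 signals of probe sets, short sets of oligonucleotides that read 1 transcript, and a change is deletion minus control within 1 table. The 2 experiments used different Affymetrix mouse arrays normalized separately, so levels are compared within an experiment only. The mean of both changes was tested in limma over all 13293 genes, and a gene is said to have risen or fallen where the Benjamini-Hochberg adjusted p was under 0.05. Errors are limma standard errors (SE) from 8 arrays.

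Sex markers separated the same groups as the deletion in both experiments. Xist, transcribed from the inactive X of females, read 10.89 to 11.88 in the 4 control arrays and 3.66 to 6.98 in the 4 deletion arrays, and the Y-linked gene Eif2s3y read 3.26 to 3.62 against 8.90 to 9.42. Neither sex nor the presence of CreER can be told apart from the deletion, for any gene named below. Epithelial identity held in every array, with a mean of 11.4 to 11.9 over 10 stratified epithelium markers. Of 17 measured leukocyte markers none moved the same way without overlap, against 6.04% higher and 10.6% lower among autosomal genes. The mean of these markers was 5.69 and 5.92 against 5.75 and 6.32 in the Twist1 experiment. With p53 also deleted it was 5.31 and 5.43 against 5.73 and 5.79. The 3′ probe sets of Gapdh exceeded its 5′ ones, a sign of RNA quality, by 0.04 and 0.03 in the Twist1 controls against 0.22 and 0.30 after deletion, while the Twist1/p53 groups overlapped, at -0.03 and 0.06 against -0.02 and -0.04. For Actb this excess was 0.63 and 0.63 against 0.95 and 0.79 in the Twist1 experiment. The poly-A control transcripts added to the RNA read 8.4 and 9.3 in its controls against 9.6 and 10.6 after deletion. Both measures overlapped between the Twist1/p53 groups. The part of leukocyte RNA, of RNA quality and of these array differences in the changes below was not tested. In sorted bulk RNA, fewer cells of a type and less RNA per cell cannot be told apart.

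Of the autosomal genes 147 rose (1.14%) and 140 fell (1.09%) in the mean change, 2.23% together. Among the genes that moved the same way without overlap, 114 rose (0.887% of autosomal genes) and 125 fell (0.973%), and the members had medians of 0.37 for the higher and -0.36 for the lower genes. These 239 genes had changes that were mostly moderate: the smaller of the 2 changes had a median of 0.63 among the risen and 0.51 among the fallen, and 26 rose and 17 fell by at least 1 log2 unit, a 2-fold change, in both experiments. Only 10 of the 239 were also called in the change of the Twist1 experiment, in which 17 autosomal genes (0.132%) were called. In the Twist1/p53 experiment, with 258 autosomal genes called (2.01%), 109 of the 239 were, and 124 were called in neither. Across all 12849 genes the changes of both experiments had a Pearson r of 0.305 and a Spearman rho of 0.293, a description across genes that share arrays and are not independent replicates.

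**Figure D1:**
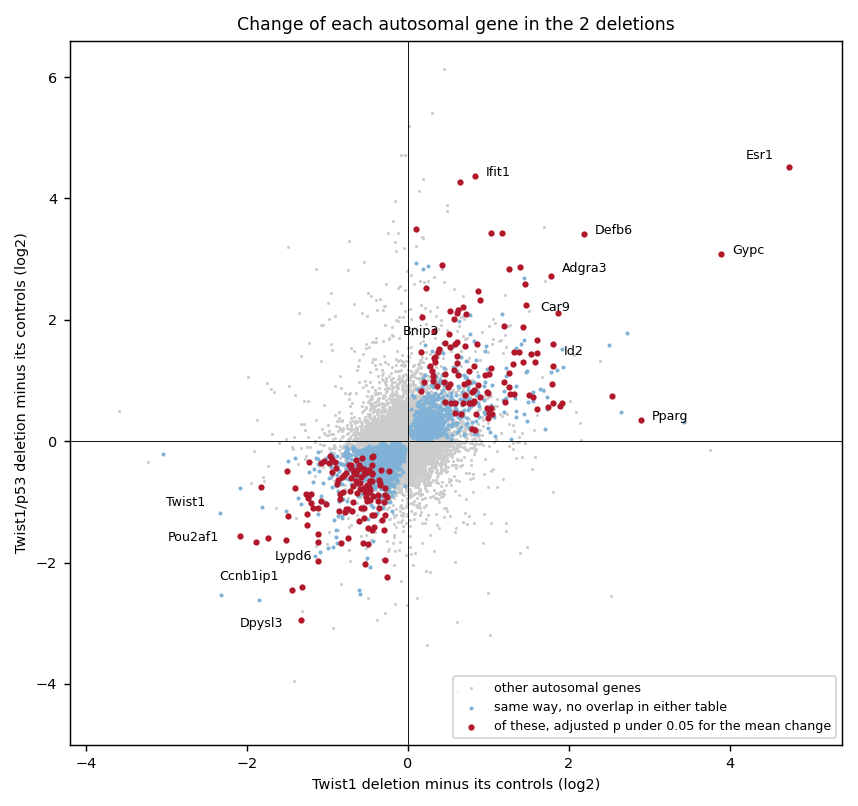
Change of each of the 12849 autosomal genes after Twist1 deletion (horizontal, log2) and after Twist1/p53 deletion (vertical, log2), each against its own controls, with 1 point per gene. Esr1 and Gypc lie apart at the upper right, while Ifit1 lies high because its change after Twist1/p53 deletion was much larger.

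The number of calls depended on the control arrays, whose pairs differed less than those of the deletion arrays. Over genes, the difference within a pair had a standard deviation of 0.329 in Twist1 controls against 0.507 after deletion. In the Twist1/p53 experiment these were 0.192 and 0.473, while the model shared 1 spread among all groups. All 239 genes kept their direction whichever array was left out, but the rule of no overlap fixes this in advance. Without either control array of the Twist1/p53 experiment 12 of the 239 were still called, and without control 1 or 2 of the Twist1 experiment 29 and 35. Leaving out 1 deletion array left between 147 and 232 of them called. The 10 genes called whichever array was left out were Esr1, Gypc, Baiap2l1, Bnip3, Ifit1 and Rnf150, which rose, and Dpysl3, Ccnb1ip1, Atp10d and the unnamed transcript 9530077C05Rik, which fell.

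Twist1 itself was lower in both deletions without overlap. In the Twist1 experiment its probe set was at 5.20 and 7.18 in controls against 3.81 and 3.90 after deletion, and in the Twist1/p53 experiment at 6.15 and 6.04 against 4.82 and 5.01. The controls of the Twist1 experiment differed from each other by nearly as much as the groups did, and the mean change of -1.76 (SE 0.38) did not pass (limma, adjusted p = 0.068). The sources used here do not say whether this probe set lies inside the deleted part. Cdkn1a, the gene of the cell-cycle inhibitor p21 and a well known p53 target, was at 0.13 (SE 0.09, adjusted p = 0.45) in the mean change. Its deletion arrays lay above the controls in the Twist1 experiment, at 11.79 and 11.41 against 11.30 and 11.33, and among them in the Twist1/p53 experiment.

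The estrogen receptor gene Esr1 had the largest common rise. Its probe set read 3.96 and 4.34 in the Twist1 controls against 8.94 and 8.83 after deletion, and with p53 also deleted 6.56 and 5.99 against 11.10 and 10.49. The lowest deletion array lay 4.49 above the highest control in the first experiment and 3.93 in the second, with a mean change of 4.63 (SE 0.20, limma adjusted p = 1.7e-04), or 24.7-fold, and a difference between the experiments of -0.21 (95% interval -1.14 to 0.72). A pair of further probe sets, assigned to Esr1 by one of the array annotations, did not follow: they changed by 0.32 and -0.24 after Twist1 deletion and by 0.09 and 0.01 after Twist1/p53 deletion. The CreER transgene of the deletion mice contains estrogen receptor sequence, and the bases that the Esr1 probe sets read were not used here, so transcripts of the transgene and of the mouse gene cannot be told apart. Of 16 nuclear receptor and estrogen-induced genes measured, Esr1 alone was called, while 1.14% of autosomal genes rose. Nr1d2, a clock-controlled receptor, was higher without overlap (0.32, SE 0.10) and Rora, another clock receptor, lower (-0.87, SE 0.24), neither passing at adjusted p of 0.14 and 0.11.

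Gypc, which encodes the membrane glycoprotein glycophorin C of the red cell skeleton, had the smallest adjusted p of the autosomal genes named here. It read 4.88 and 5.11 against 8.83 and 8.94 in the Twist1 experiment, and with p53 also deleted 4.73 and 4.56 against 7.83 and 7.64. The groups lay far apart in both, and the mean rise was 3.49 (SE 0.12, adjusted p = 4.9e-05), or 11.2-fold. The other 4 erythroid markers measured, Alas2, Slc4a1, Klf1 and Gata1, had mean changes between -0.11 and 0.02, so the erythroid list moved through Gypc alone.

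**Figure D2:**
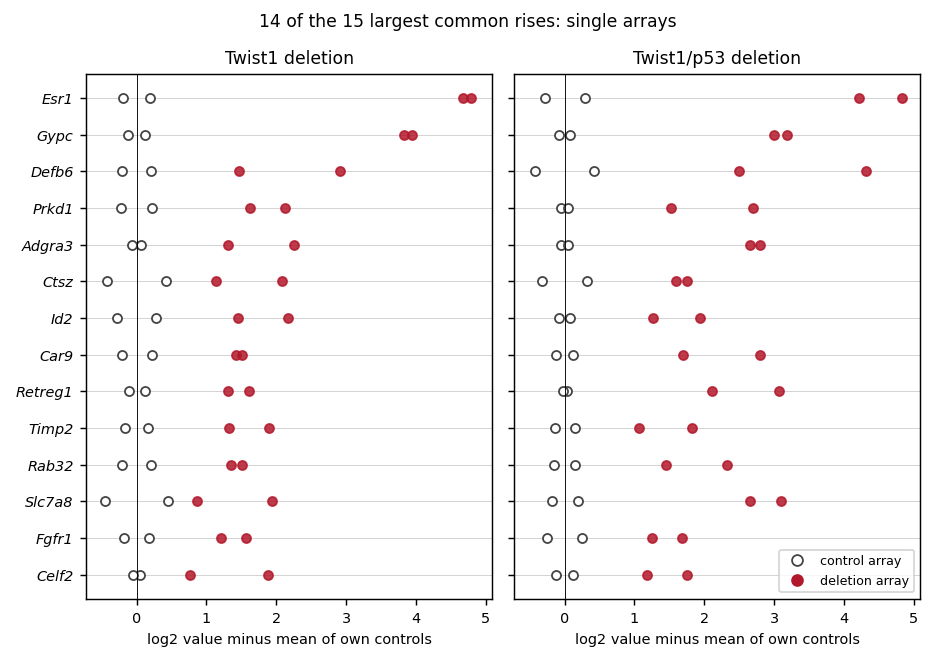
Single arrays of 14 of the 15 largest common rises, as log2 values minus the mean of the controls of the same table; open circles are control arrays and filled circles deletion arrays, 2 of each per gene and table. By the rule of selection every filled circle lies to the right of both open circles of its row. The replicates of Gypc and Esr1 lie close together relative to their distance from the controls.

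Among the partners and competitors of Twist1, Id2 and the E protein gene Tcf4 rose. Id2 encodes an inhibitor of DNA binding that sequesters E proteins. It read 8.77 and 9.33 against 11.22 and 10.50 in the Twist1 experiment and, with p53 also deleted, 7.16 and 7.01 against 9.03 and 8.35, all deletion arrays above all controls, a mean rise of 1.70 (SE 0.23, adjusted p = 0.020). Of its 3 probe sets 2 moved this way, and with the mean over them (1.13) it was no longer called. Tcf4 read 7.44 and 7.38 against 8.33 and 7.99, and 6.79 and 6.75 against 7.61 and 7.86, again without overlap (0.86, SE 0.12, adjusted p = 0.024). Id4 was higher without overlap but spread widely among deletion arrays (1.19, SE 0.33, adjusted p = 0.12). The remaining members of this list of 7, Id1 (-0.18, SE 0.23), Id3 (0.36, SE 0.15), Tcf3 (-0.01, SE 0.12) and Tcf12 (0.43, SE 0.12), overlapped in at least 1 table. Both calls were lost whichever control array was left out.

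The promoter of Id2 is printed because dimers of Twist1 and an E protein bind E-boxes. The 250 bases before its start, at chr12:25096093-25096342 on the minus strand (GRCm38.p6, from RefSeq), hold 1 E-box (CANNTG), shown in capitals. This E-box is CAGCTG and not of the form CATNTG described below.
Id2: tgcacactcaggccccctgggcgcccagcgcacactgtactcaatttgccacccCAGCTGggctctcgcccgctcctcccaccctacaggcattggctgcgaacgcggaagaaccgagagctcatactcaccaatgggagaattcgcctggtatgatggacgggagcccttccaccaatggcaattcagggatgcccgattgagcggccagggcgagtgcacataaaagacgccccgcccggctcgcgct
E-boxes were common in such windows. They occurred in 59.5% of the windows of autosomal genes tested, in 60.5% of those of risen and 63.6% of those of fallen members, and in 66.2% of all windows of the RefSeq table. The form CATNTG, which includes the sites Twist1 prefers and is contained in CANNTG, occurred in 25.2% of the windows of autosomal genes tested, 23.4% of those of risen and 25.6% of those of fallen members, and 35.0% of all windows. A full palindromic estrogen response element occurred in 0 windows of risen or fallen members and in 0.0639% of all windows. Both strands were searched, and 88 of the 114 risen and 100 of the 125 fallen members had a window.

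The largest rises also included Fgfr1, Prkd1 and Adgra3. Fgfr1, a fibroblast growth factor receptor, read 6.09 and 6.45 against 7.48 and 7.84, and with p53 also deleted 6.46 and 5.96 against 7.89 and 7.46. All 3 of its probe sets moved this way, and the mean rise was 1.43 (SE 0.18, adjusted p = 0.018), with 1.39 and 1.46 in the 2 experiments (difference 0.08, 95% interval -0.79 to 0.95). With the probe set highest in the Twist1/p53 experiment the value was 0.78 and was not called. Prkd1, the signalling kinase protein kinase D1, rose by 1.99 (SE 0.26, adjusted p = 0.019), from 4.32 and 3.88 to 5.72 and 6.22 in the Twist1 experiment and from 3.69 and 3.78 to 6.43 and 5.26 in the Twist1/p53 experiment. Adgra3, an adhesion G protein-coupled receptor, rose by 2.25 (SE 0.21, adjusted p = 0.0062) through 1 probe set of 3.

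Of 19 measured EGF receptor ligands and MAPK feedback genes 4 rose and none fell, against 1.14% and 1.09% of autosomal genes. Of the 19, 7 were higher and 0 lower in both experiments without overlap, against 6.04% and 10.6% of all autosomal genes. Their median mean change was 0.144, against -0.0195 over all autosomal genes. Dusp6, the phosphatase that switches off ERK and is induced by it, read 11.35 and 11.87 against 12.17 and 12.45, and 9.66 and 9.59 against 10.59 and 10.55, without overlap (0.82, SE 0.13, adjusted p = 0.028). Dusp4, a second MAPK phosphatase, rose by 1.53 (SE 0.23, adjusted p = 0.026), and Spry1, which dampens signalling from receptor tyrosine kinases, rose by 0.90 (SE 0.13, adjusted p = 0.026). Tgfa, a ligand of the EGF receptor, rose by 0.85 (SE 0.12, adjusted p = 0.023), with 0.33 after Twist1 deletion and 1.36 after Twist1/p53 deletion. Spry2, Spred2 and Spry4, feedback inhibitors as well, were higher without overlap and did not pass, at 0.74, 0.35 and 0.38. Among the receptors of this family, Egfr was at -0.07 (SE 0.10), Erbb2 at -0.18 (SE 0.15) and Erbb3 at -0.02 (SE 0.18), none passing. None of the 4 calls held without control 1 of the Twist1 experiment or without either control of the Twist1/p53 experiment. The immediate early genes, which the same pathway induces within minutes, included 5 of 15 that were higher without overlap (33.3%, against 6.04%) and 0 that passed. Maff, a small bZIP factor, was highest by its test statistic (0.64, SE 0.16, adjusted p = 0.091), and Egr3, a zinc finger factor, lowest of the 5 (0.27, SE 0.12).

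Genes induced by low oxygen rose as well. Car9, the cell surface carbonic anhydrase that is a standard hypoxia marker, read 7.57 and 7.14 against 8.87 and 8.78, and 5.93 and 5.70 against 8.61 and 7.50, with no overlap and a mean rise of 1.86 (SE 0.25, adjusted p = 0.019), or 3.62-fold. Bnip3, a mitophagy receptor, read 10.23 and 10.35 against 10.94 and 10.86, and 9.24 and 9.01 against 10.74 and 10.78, and rose by 1.12 (SE 0.08, adjusted p = 0.0021). Bnip3 was tight within every group and stayed called whichever array was left out. Of the 20 measured hypoxia and glycolysis genes 5 rose and 0 fell, against 1.14% and 1.09% of autosomal genes, and 7 were higher and 0 lower without overlap, against 6.04% and 10.6%. Egln3, an oxygen-sensing prolyl hydroxylase, rose by 0.73 (SE 0.09), Ero1a, an oxidase of the endoplasmic reticulum, by 0.64 (SE 0.09), and Ndrg1, a stress-induced gene, by 0.53 (SE 0.10), with adjusted p between 0.018 and 0.047. Vegfa, the vascular growth factor, was higher without overlap and did not pass (0.55, SE 0.22, adjusted p = 0.23), and Mxi1 was at 0.35 (SE 0.08, adjusted p = 0.077). The glycolytic members were close to their controls, with Ldha, lactate dehydrogenase, at 0.0064 (SE 0.055), Aldoa, an aldolase, at 0.04 (SE 0.06) and the X-linked Pgk1, phosphoglycerate kinase, at 0.08 (SE 0.06). Whichever control array was left out, Bnip3 was the only call left on this list.

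The promoters of Car9 and Bnip3 are printed because hypoxia-inducible factors bind the core ACGTG, here in capitals on either strand. The windows are the 250 bases before each start (GRCm38.p6, from RefSeq), Car9 at chr4:43506776-43507025 on the plus strand and Bnip3 at chr7:138909507-138909756 on the minus strand.
Car9: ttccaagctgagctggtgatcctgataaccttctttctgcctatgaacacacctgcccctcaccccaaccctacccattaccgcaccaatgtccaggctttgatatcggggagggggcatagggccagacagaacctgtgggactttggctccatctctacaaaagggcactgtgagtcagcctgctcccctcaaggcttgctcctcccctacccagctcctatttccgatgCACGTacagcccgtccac
Bnip3: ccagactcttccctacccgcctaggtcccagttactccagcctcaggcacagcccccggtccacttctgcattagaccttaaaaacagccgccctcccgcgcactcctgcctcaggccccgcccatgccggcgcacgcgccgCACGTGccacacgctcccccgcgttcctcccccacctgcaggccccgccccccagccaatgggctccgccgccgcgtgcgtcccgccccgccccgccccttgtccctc
Car9 holds 1 match and Bnip3 2, the latter overlapping on opposite strands and forming an E-box as well. The core occurred in 25.8% of the windows of risen members, 18.2% of those of fallen members, 20.5% of those of autosomal genes tested and 16.6% of all windows. This motif was searched after the values of Car9 and Bnip3 had been seen. A GC box (GGGCGG), which many promoters carry, occurred in 63.7%, 59.5%, 53.6% and 32.7% of the same sets.

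The other large rises included Timp2, Ctsz, Defb6, Retreg1, Rab32, Slc7a8 and Celf2. Timp2, an inhibitor of matrix metalloproteinases, read 6.04 and 6.37 against 7.53 and 8.10, and 7.06 and 7.34 against 9.02 and 8.27. The groups were clearly apart, 5 of its 6 probe sets moved this way, and the mean rise was 1.53 (SE 0.22, adjusted p = 0.023). On the list of 15 matrix proteases and inhibitors Timp2 alone was called, while 1.14% of autosomal genes rose. With Timp2, Mmp14, a membrane-bound collagenase (0.40, SE 0.11), and Mmp7, or matrilysin (0.12, SE 0.08), were higher without overlap (20%, against 6.04% of autosomal genes). Ctsz, a lysosomal cathepsin, rose by 1.64 (SE 0.28, adjusted p = 0.040) in all 3 probe sets, but not with the mean over them. Defb6, a beta-defensin, rose by 2.80 (SE 0.48, adjusted p = 0.039) but with deletion arrays at 7.06 and 8.50 in one experiment and 8.30 and 10.12 in the other. Retreg1, a receptor that marks endoplasmic reticulum for autophagy, rose by 2.03 (SE 0.21, adjusted p = 0.0094), and Rab32, a GTPase of organelle traffic, by 1.66 (SE 0.22). Slc7a8, a transporter of neutral amino acids, rose by 2.14 (SE 0.30), and Celf2, an RNA-binding splicing regulator, by 1.39 (SE 0.26, adjusted p = 0.045), through 3 probe sets of 7.

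Among called members the falls had a median of -0.72 against 1.07 for the rises, and the largest mean fall was that of Dpysl3, a collapsin response mediator of the cytoskeleton. It read 6.90 and 7.51 against 5.94 and 5.81 in the Twist1 experiment and, with p53 also deleted, 8.07 and 8.03 against 4.80 and 5.41. Its arrays were separated in both, and in all 3 probe sets, with a mean change of -2.14 (SE 0.19, adjusted p = 0.0056). Ccnb1ip1, a ligase known from meiotic crossing over, read 8.84 and 8.48 against 7.43 and 7.26, and 7.17 and 7.26 against 4.83 and 4.80 (-1.86, SE 0.12, adjusted p = 0.0014). Both genes kept their calls whichever array was left out.

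Vwa2, Lypd6, Nrp1 and Bace2 fell as well. Vwa2, a matrix protein of basement membranes, read 6.86 and 6.30 against 4.94 and 4.44, and 9.43 and 9.44 against 8.34 and 7.19 (-1.78, SE 0.27, adjusted p = 0.028). Lypd6, a membrane-anchored Ly6 protein known as a Wnt regulator, read 6.86 and 6.49 against 5.03 and 4.84, and 6.63 and 6.58 against 5.42 and 4.60, with 2 of 3 probe sets moving this way (-1.67, SE 0.20, adjusted p = 0.015). Nrp1, the co-receptor of semaphorins and VEGF, fell by 1.32 (SE 0.23, adjusted p = 0.042), from 7.24 and 7.61 to 6.15 and 6.46 and from 7.53 and 7.04 to 6.21 and 5.31. In each of these genes all deletion arrays lay below all controls, as the rule of selection required. Bace2, a membrane protease, fell by 1.36 (SE 0.18, adjusted p = 0.019) through 3 probe sets of 5, and was no longer called with the mean over them (-0.56).

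**Figure D3:**
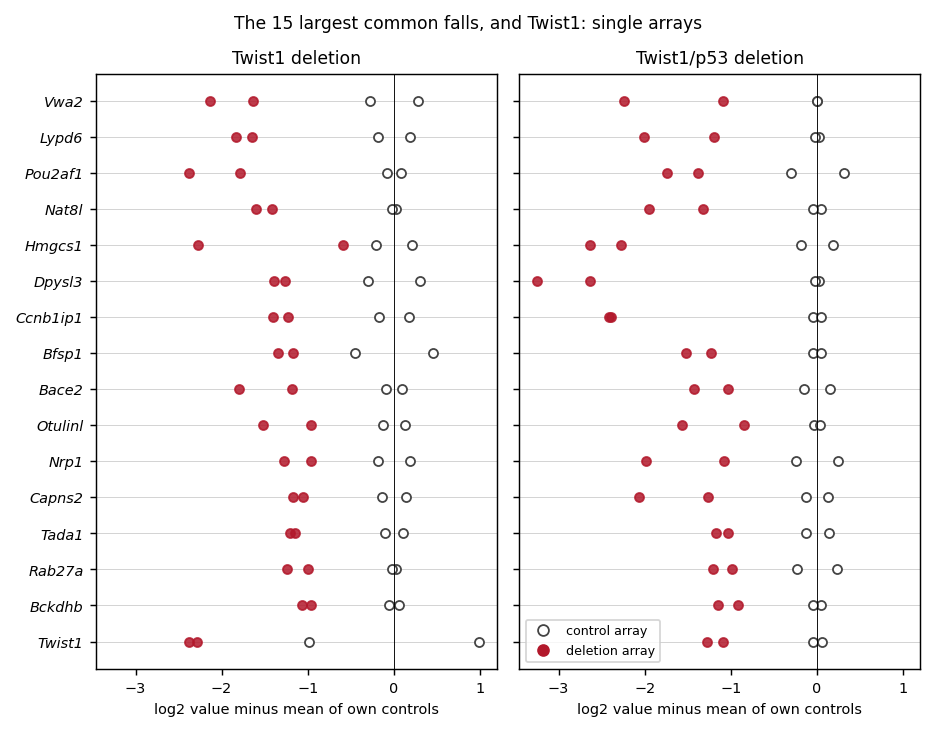
Single arrays of the 15 largest common falls and of Twist1, as log2 values minus the mean of the controls of the same table; open circles are control arrays and filled circles deletion arrays. The filled circles lie to the left of both open circles in every row, for the 15 falls by the rule of selection. The open circles of Twist1 are widely spread in the Twist1 experiment only.

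Hmgcs1, Nat8l and Bckdhb, which encode metabolic enzymes, were also among the largest falls. Hmgcs1, which makes the HMG-CoA used for cholesterol, read 7.32 and 7.73 against 6.93 and 5.25, and 6.49 and 6.86 against 4.04 and 4.40. Its deletion arrays were unequal in the Twist1 experiment, and its mean change of -1.94 (SE 0.35, adjusted p = 0.044) was no longer called with quantile normalization. Of its 5 probe sets 3 moved this way, and the other 4, all with stronger signals and named Hmgcs1 by 1 annotation only, changed by less, between -0.61 and -0.22 after Twist1 deletion and between -0.37 and -0.14 after Twist1/p53 deletion. Of 18 cholesterol synthesis genes 0 rose and 2 fell, against 1.14% and 1.09% of autosomal genes. The 2 were Hmgcs1 and Lss, the cyclase that forms lanosterol (-0.58, SE 0.10, adjusted p = 0.044). A further 2 were lower without overlap, Tm7sf2, a sterol reductase (-0.43, SE 0.11), and Mvk, mevalonate kinase (-0.41, SE 0.11), and the list median was -0.183. Lower without overlap were thus 22.2% of the list, against 10.6% of autosomal genes. Both calls were lost whichever control array was left out, and without deletion array 1 of the Twist1/p53 experiment. Nat8l, which makes N-acetylaspartate, fell by 1.57 (SE 0.15, adjusted p = 0.0075), and Bckdhb, a subunit of branched-chain amino acid breakdown, by 1.03 (SE 0.10, adjusted p = 0.0068), with -1.02 and -1.04 in the 2 experiments.

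Pou2af1, a transcriptional coactivator best known from B cells, read 5.79 and 5.61 against 3.32 and 3.91, and 5.31 and 5.93 against 4.24 and 3.88, and fell by 1.82 (SE 0.19, adjusted p = 0.0093). The B-cell marker Cd79a was at -0.09, with overlapping groups. Tada1, a subunit of the SAGA chromatin complex, fell by 1.15 (SE 0.11, adjusted p = 0.0078) and Rab27a, a GTPase of secretory vesicles, by 1.11 (SE 0.14, adjusted p = 0.018). Capns2, a calpain small subunit, fell by 1.39 (SE 0.19), Bfsp1, a filament protein of the lens, by 1.32 (SE 0.21), and Otulinl by 1.23 (SE 0.20), with adjusted p between 0.020 and 0.035.

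**Figure D4:**
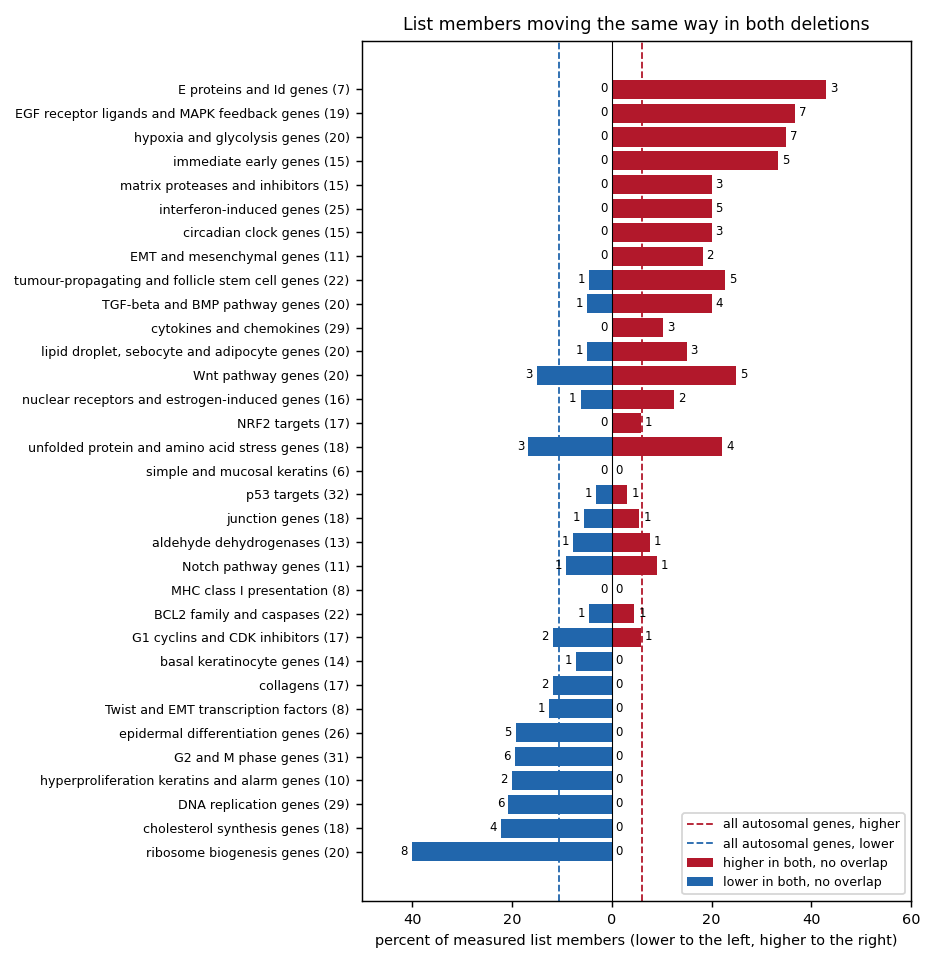
Percent of the measured members of each gene list (number in parentheses) that moved the same way in both deletions without overlap, lower to the left and higher to the right, with the number at each bar. Dashed lines mark 6.04% higher and 10.6% lower, the shares of all autosomal genes; ribosome biogenesis reaches furthest to the left and E proteins and Id genes furthest to the right.

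Ribosome biogenesis genes were lower throughout. All 20 measured had a mean change below 0, with a median of -0.216, and 8 of them (40%) were lower in both experiments without overlap, against 10.6% of autosomal genes. Each change was small and none of the autosomal members was called. Wdr12, a processing factor of the large subunit, read 9.56 and 9.64 against 9.10 and 9.10, and 9.31 and 9.19 against 8.44 and 8.96 (-0.52, SE 0.13, adjusted p = 0.087), and Polr1b, a subunit of RNA polymerase I, was at -0.44 (SE 0.13). The X-linked Dkc1, the pseudouridine synthase of small nucleolar particles, fell (-0.37, SE 0.07, adjusted p = 0.048) but lies outside the autosomal set. With 1 array left out the count without overlap cannot fall below 8, because separated arrays stay separated. It was highest, at 16, without deletion array 1 of the Twist1 experiment. Under that setting 2316 of 12849 autosomal genes were lower without overlap.

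**Figure D5:**
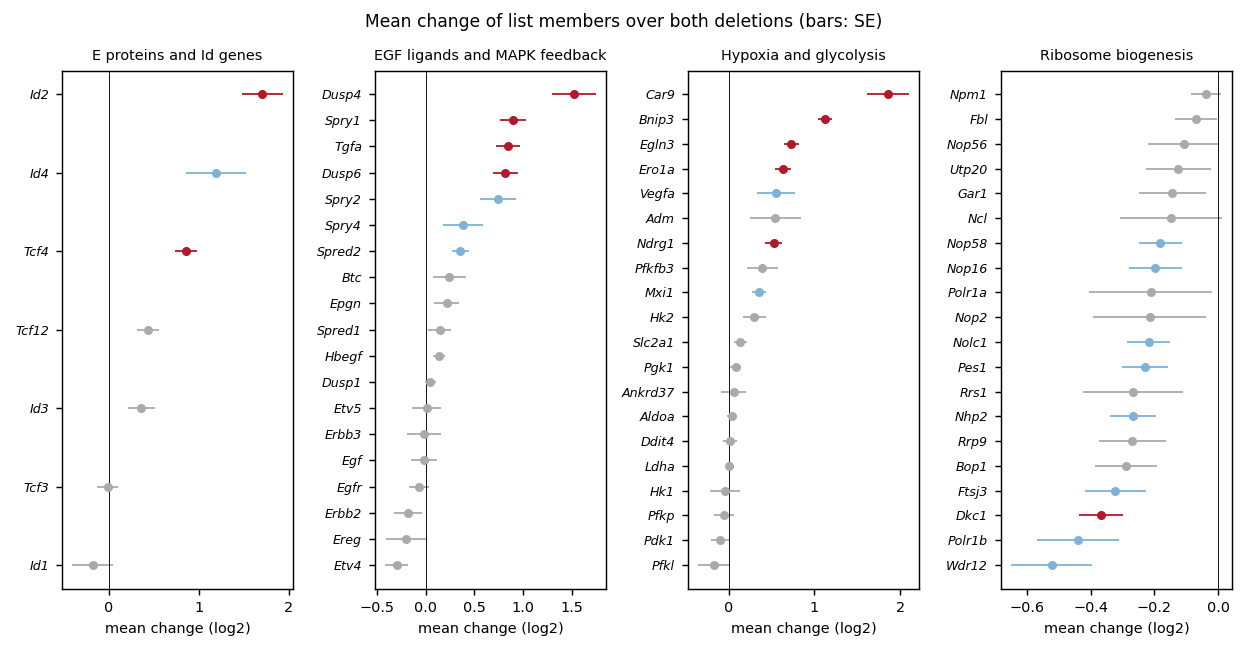
Mean change over both deletions (log2) with its SE for the measured members of 4 gene lists; red points passed adjusted p under 0.05, blue points moved the same way without overlap only, and grey points did neither. Ribosome biogenesis genes lie below 0 throughout, whereas the hypoxia list is led by Car9 and Bnip3 with its glycolytic members near 0.

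Of the cell cycle genes, those of G2 and M were mostly below 0, with 2 calls. Of 31 G2/M phase genes 29 had a mean change below 0 (median -0.276), and 6 were lower without overlap (19.4%, against 10.6% of autosomal genes). The 2 that fell, against 1.09% of autosomal genes, were Cdc20, the activator of the anaphase-promoting complex (-0.42, SE 0.07, adjusted p = 0.041), and Cenpf, a kinetochore protein (-0.65, SE 0.12, adjusted p = 0.049). Cdc20 read 11.09 and 11.30 against 10.74 and 10.77, and 10.68 and 10.77 against 10.34 and 10.33. Leaving out an array loosens the rule of no overlap for every gene. Without deletion array 1 of the Twist1/p53 experiment 21 of 31 were lower without overlap. Under that setting 1948 of 12849 autosomal genes were, against 1367 with all arrays. The number of calls on this list also changed with the array left out. Of 29 DNA replication genes 0 passed and 6 were lower without overlap (20.7%, against 10.6% of autosomal genes). Among them was Rrm1, a ribonucleotide reductase subunit (-0.38, SE 0.08, adjusted p = 0.076). Without deletion array 1 of the Twist1/p53 experiment 14 were lower without overlap, under the same loosened rule. Another 6 of the 29 were separated in opposite directions, as were 6.51% of autosomal genes, and the median was -0.434 after Twist1 deletion and 0.0086 after Twist1/p53 deletion. Among 17 G1 cyclins and CDK inhibitors, Cdkn2d, which encodes the inhibitor p19Ink4d, fell (-0.71, SE 0.12, adjusted p = 0.040), and Ccnd2, a D-type cyclin, was higher without overlap (1.22, SE 0.35, adjusted p = 0.12).

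Epidermal differentiation genes were lower by larger steps but with more spread. The median mean change of 26 genes was -0.699, 5 were lower without overlap (19.2%, against 10.6% of autosomal genes), 0 higher, and 0 passed. Krt1, a keratin of the suprabasal layers, read 12.01 and 11.83 against 10.40 and 9.83, and 12.67 and 12.65 against 10.88 and 12.26, so that deletion array 2 of the Twist1/p53 experiment lay close to its controls (-1.45, SE 0.29, adjusted p = 0.054). Krt10, its partner, was at -1.33 (SE 0.37) and the desmosomal cadherins Dsg1a and Dsc1 at -2.43 (SE 0.68) and -2.23 (SE 0.75). Loricrin, encoded by Lor, went opposite ways, at 2.52 after Twist1 deletion and -2.55 after Twist1/p53 deletion. Without deletion array 1 of the Twist1 experiment 13 of the 26 were lower without overlap. Leaving out that array loosens the rule for every gene, and 2316 of 12849 autosomal genes were then lower without overlap. Without deletion array 2 of the Twist1 experiment the median of the list was -0.278. The basal keratins Krt5 (-0.19, SE 0.07) and Krt14 (-0.16, SE 0.05) did not pass and were lower without overlap in the Twist1 experiment only, while Pkp1, a desmosomal plaque protein, fell slightly (-0.35, SE 0.07, adjusted p = 0.047).

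Stem cell and developmental regulators were mixed, with more rises. Of all autosomal genes 1.14% rose and 1.09% fell, the shares to set beside the calls of the 3 lists here. Of 22 genes of tumour-propagating and follicle stem cells 2 rose, Sox9 (0.79, SE 0.11, adjusted p = 0.022) and Lhx2 (0.93, SE 0.17, adjusted p = 0.044), both transcription factors of hair follicle stem cells, and 1 fell, Nrp1. Without overlap 5 were higher and 1 lower, and 3 were separated in opposite directions, against 6.04%, 10.6% and 6.51% of autosomal genes. Sox9 read 8.90 and 9.03 against 9.79 and 10.21, and 10.18 and 10.34 against 10.85 and 10.77. Sox2 was higher without overlap, mainly in the Twist1 experiment (3.43 and 0.31), and did not pass (adjusted p = 0.16). In the Wnt pathway list of 20, Fzd7, a receptor, rose (0.80, SE 0.12, adjusted p = 0.026), Wnt4, a ligand, fell (-0.82, SE 0.14, adjusted p = 0.040), and 5 were higher (25% against 6.04%) and 3 lower (15% against 10.6%) without overlap. Of 20 TGF-beta and BMP pathway genes 2 inhibitors rose, Bambi, a decoy receptor (1.55, SE 0.23, adjusted p = 0.026), and Smad6, an inhibitory Smad (1.06, SE 0.20, adjusted p = 0.047), while the ligand Bmp4 was lower without overlap (-0.69, SE 0.23, adjusted p = 0.16). On that list 4 were higher (20%) and 1 lower (5%) without overlap, and 3 were separated in opposite directions. All calls of these 3 lists were lost whichever control array was left out.

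No gene on the lists of EMT factors and EMT or mesenchymal genes passed. Of 8 measured EMT transcription factors Twist1 alone was separated in both experiments, and Snai2 was at 0.02 (SE 0.14). Of 11 EMT and mesenchymal genes 2 were higher without overlap (18.2%, against 6.04% of autosomal genes), Acta2, smooth muscle actin (0.64, SE 0.16), and Mmp14. Col6a1 fell in the mean change (-1.36, SE 0.20, adjusted p = 0.026) without being separated in both tables. Vim, which encodes vimentin, overlapped in both tables (-0.02, SE 0.50), and of 17 collagens Col1a1 (-1.56, SE 0.37, adjusted p = 0.080) and Col12a1 (-0.30, SE 0.09) were lower without overlap (11.8%, against 10.6% of autosomal genes). Epcam, the sorting marker, was itself higher without overlap, with 10.38 and 10.54 against 10.82 and 11.62, and 10.42 and 10.46 against 10.95 and 11.01 (0.65, SE 0.16, adjusted p = 0.093).

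Smaller groups each held 1 or a few common changes. Their calls stand beside 1.14% of autosomal genes that rose and 1.09% that fell. Pparg, the regulator of fat and sebaceous cell differentiation, rose (1.62, SE 0.21, adjusted p = 0.018), but mainly after Twist1 deletion, with 4.42 and 4.49 against 7.82 and 6.88 there and 5.36 and 5.49 against 5.64 and 5.91 after Twist1/p53 deletion. Of the 20 lipid, sebocyte and adipocyte genes measured, Pparg included, 2 rose. Without overlap 3 were higher (15%, against 6.04% of autosomal genes) and 1 was lower (5%, against 10.6%). The other called gene, Pde3b, a phosphodiesterase, changed by 3.76 after Twist1 deletion and by -0.15, with overlapping arrays, after Twist1/p53 deletion. Plin2, a lipid droplet coat protein (0.73, SE 0.19), and Cidea, which enlarges lipid droplets (1.58, SE 0.51), were higher and Acaca, which starts fatty acid synthesis (-0.24, SE 0.08), lower, none of them passing. Ccl5, a chemokine, was the only one of 29 cytokines called (1.29, SE 0.12, adjusted p = 0.0070), and Aldh3a1, an aldehyde dehydrogenase, the only one of 13 on its list (1.64, SE 0.30, adjusted p = 0.045). Nrarp, a Notch target and feedback inhibitor, fell (-0.53, SE 0.10, adjusted p = 0.049). Of 18 unfolded protein and amino acid stress genes 0 passed. Without overlap 4 were higher (22.2%, against 6.04% of autosomal genes) and 3 lower (16.7%, against 10.6%). The serine synthesis enzyme Phgdh was at -0.50 (SE 0.10, adjusted p = 0.056) and Atf4, the stress transcription factor, at 0.30 (SE 0.09). Of 15 circadian clock genes 3 were higher without overlap (20%, against 6.04% of autosomal genes), and 0 passed.

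Of the 32 p53 targets measured, 0 passed, 1 was higher and 1 lower without overlap, and 6 were separated in opposite directions, against 6.51% of all autosomal genes. Sesn2, a stress-induced inhibitor of growth signalling, was the higher one (0.32, SE 0.16) and Phlda3, an inhibitor of Akt, the lower (-0.40, SE 0.18). The shares of 3.12% in each direction lay below the 6.04% and 10.6% of all autosomal genes.

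For 4 of the 239 genes the size of the change differed between the experiments at an adjusted p under 0.05, as did 23 autosomal genes in all (0.179%). Baiap2l1, which bends membranes by its BAR domain, read 7.85 and 7.84 against 7.89 and 8.002 in the Twist1 experiment and, with p53 also deleted, 7.36 and 7.26 against 10.70 and 10.91, so its common rise rests on a change of 0.10 in the former. Ifit1, an interferon-induced antiviral gene, changed by 0.84 and 4.37, and Cntfr, a cytokine receptor chain, by 0.22 and 2.52. Atp10d, a lipid-moving ATPase, changed by -0.28 and -1.96. The interferon list showed the same imbalance: 14 of 25 rose in the mean change, against 1.14% of autosomal genes. Only 5 were higher in both without overlap (20%, against 6.04%), and the medians of the experiments were 0.02 and 2.26.

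The rule of no overlap has no minimum distance, so members at its edge were separated by little. Just inside, Cntfr and Prdm8, whose deletion arrays cleared their controls by 0.003 and 0.013 in the closer table, were members, and just outside, Bcl2l15 and Cep250 overlapped by 0.012 and 0.017 in theirs. All 19 autosomes carried members, at 12.3% to 20.8% of their genes tested. The share of genes that were members and called was 3.58% on chromosome 4, the highest, and 1.08% on chromosomes 7 and 19, the lowest. In 5 cases neighbouring genes of the RefSeq table changed together: Irx1 and Irx2, a pair of homeobox genes on chromosome 13, rose by 1.37 and 1.09, and Abhd14a and Abhd14b on chromosome 9 by 0.89 and 1.27, while Map3k6 with Sytl1 and Ints11 with Acap3 on chromosome 4 and Nudt13 with Ecd on chromosome 14 fell. Where neighbours overlap, their probe sets could share transcripts, which was not tested.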

How the data were processed

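RNA of sorted tumour cells was hybridised to Affymetrix mouse expression arrays, and the deposited values were analysed as the authors left them. Each experiment was deposited as a table of log2 values; the log2 scale was read from the values, and the sources used here do not name the authors' normalization software. There were 45101 probe sets in the Twist1 table and 45083 in the Twist1/p53 table, of which 45043 were joined by probe set ID without the PM suffix. A gene was read by the probe set with the highest mean rank over both tables, genes below the 20th percentile were left out, and 13293 were tested. Array depth has no counts, so the number of arrays limits precision. A limma 3.58.1 model in R 4.3.3 with 4 group means over 8 arrays gave the change of each experiment, their mean and their difference, with Benjamini-Hochberg adjustment over all genes. On simulated data, 78.4% of genes changed by 1 and 98% of those changed by 2 were recovered in the mean change. Of the calls there, 4.49% were false. The simulation drew independent normal noise from the fitted model, with the same spread in all 4 groups. The real groups differed in spread, so these rates need not hold for the data.

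Named were Twist1, Cdkn1a, the 15 rises and 15 falls with the largest smaller change among called members, and of each list the members without overlap with the highest and lowest test statistic. The ranking passed over unnamed transcripts and genes of the X and Y. Other genes named, 9530077C05Rik among them, were chosen after their values were seen. Members and gene lists were chosen with earlier results of these data known. The level of the p53 gene and 1 of the 15 rises are not reported here. Alternatives covered normalization, filter, probe set choice, thresholds, single arrays left out, separate fits and a replicate block.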

Additional observations from a re-analysis of the deposited data

Results flagged for a closer look

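For 4 genes with a common direction the change differed between the deletions at an adjusted p under 0.05 in limma. After Twist1/p53 deletion the change exceeded that after Twist1 deletion by 3.54 for Ifit1, by 3.40 for Baiap2l1 (95% interval 2.95 to 3.85) and by 2.30 for Cntfr (1.73 to 2.87), and for Atp10d the difference was -1.68 (-2.12 to -1.24). The interferon-induced genes Rsad2 and Oasl2, chosen after their values were seen, differed by 5.10 and 4.80, and Oasl2 was not higher after Twist1 deletion at all, with -0.08.

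Signals also lay in probe sets outside the gene test. Of 6241 probe sets without a single gene in either annotation, 28 higher and 52 lower ones were called in the mean change and moved the same way without overlap. A probe set named Phgdh by 1 annotation only read 11.11 and 11.80 against 6.00 and 5.14 in the Twist1 experiment. With p53 also deleted it read 11.06 and 11.03 against 5.41 and 5.37, a mean change of -5.77. The Phgdh probe set of the gene test, named by both annotations, changed by only -0.50 (SE 0.10, limma adjusted p = 0.056). Xist read 11.81 and 11.88 against 6.98 and 6.07, and 10.92 and 10.89 against 4.06 and 3.66, in the same arrays. A probe set named Rgcc by 1 annotation rose by 2.83, from 8.70 and 7.46 to 9.95 and 10.70 and from 5.26 and 5.50 to 9.19 and 8.41.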

How the results depend on the processing

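None of the genes named by rule, 45 called and 44 not called, changed direction under an alternative where they were tested. Genes named after their values were seen were not checked unless they were among the 239. For counts only a change of size was recorded. With 1 array left out, the direction was fixed in advance for genes separated in both experiments. Of the 239 called members, 1 changed direction under each choice of probe set: 237 of 238 tested kept it with the mean over probe sets, 236 of 237 with the one highest in the Twist1 table, and 233 of 234 with the one highest in the Twist1/p53 table. With 1 array left out, genes risen numbered 15 to 419 and fallen 5 to 440 in the mean change. Genes higher without overlap numbered 954 to 1588 and lower 1523 to 2316, and genes with a difference between the deletions 9 to 93 higher and 0 to 46 lower after Twist1/p53 deletion. Separate fits of the 2 tables called 298 risen and 346 fallen, with 50 and 17 for the difference, and the Twist1 and Twist1/p53 tables on their own 4 arrays called 2 and 0, and 130 and 69. An adjusted p under 0.01 left 25 risen and 9 fallen, and one under 0.1 gave 340 and 446. A filter at the 50th percentile left 431 higher without overlap and 10 in the difference, the mean over probe sets gave 6 lower in the difference, a gap of at least 0.5 left 52 and 33 genes, and 146 and 270 had an unadjusted p under 0.05 in each table. Quantile normalization gave 158 risen and 103 fallen.

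A replicate block called 48 risen and 13 fallen, and 6 and 0 for the difference. Deviations of same-numbered arrays had a correlation over genes of 0.013 in the Twist1 and -0.033 in the Twist1/p53 table. With so few arrays these values cannot decide whether the numbers pair the samples, and no label states it.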
